A study of Mus musculus with 12 samples.

Results

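Brush border peptidases are enzymes of the microvillus surface that cut dietary and signalling peptides in the gut lumen. This account covers 9 of their genes, Anpep, Dpp4, Enpep, Mme, Ace, Xpnpep2, Mep1a, Mep1b and Tmprss15, out of the 55487 genes in the tables. They were chosen by symbol, matched through the Ensembl identifier, and all 9 were found. RNA sequencing was done on intestine of C57BL/6 mice, female and male, aged 6 to 10 weeks and with no genetic change or drug named in the labels. The 12 libraries formed 4 groups of 3: SI tissue and LI tissue (SIcrypt and LIcrypt, crypts freshly isolated from the small or the large intestine of 1 mouse each), and monolayers of SI and of LI (SI24h and LI24h, crypts plated on Matrigel and grown for 24 h, each library from pooled wells). Both kinds of monolayers started in a seeding medium with the inhibitors CHIR-99021, LDN-193189 and Y-27632, and then grew with Wnt3a, EGF, Noggin and R-spondin-1. Crypts for SI monolayers came from the jejunum and were released with EDTA and strained away from villi, while crypts for LI monolayers, from the same mice, were also digested with collagenase and dispase, so region and isolation cannot be told apart. The sources used here do not say which stretch of small intestine gave the SI tissue libraries.

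Protein digestion ends at the brush border of enterocytes, the absorptive cells of the gut. Pancreatic enzymes leave short peptides, membrane peptidases then trim them from either end or inside the chain, and transporters take up the free amino acids, dipeptides and tripeptides. Enteropeptidase, the product of Tmprss15, stands at the head of this cascade because it activates trypsinogen. Several of the other enzymes are also known outside the gut: Ace, Enpep and Mme process angiotensins and other peptide hormones, and Dpp4 cuts incretins.

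Libraries held 59016196 to 76216530 counts, so a gene without a count could still lie at up to 3 counts, which equalled 0.0394 to 0.0508 CPM (counts scaled to library size). That limit covers counting error only. Between 73.4% and 77.4% of the counts from 1 to 20 in each library were even numbers, and whether both mates of a pair were counted is not given in the sources used here. If both were counted, the limit of 3 counts would be too low and the Poisson intervals below too narrow. Values are given as normalized counts, the authors' counts divided by 1 size factor per library, and tests are on the deposited counts. A gene is called higher or lower at a Benjamini-Hochberg adjusted p-value under 0.05 in edgeR's quasi-likelihood test, over 19581 tested genes, and a log2 fold change of 1 or more in either direction. Each log2 fold change stands with its standard error (SE). Whole-transcriptome libraries do not tell apart fewer cells of a type and less RNA per cell.

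Before the comparisons, the libraries were checked against their labels. The SI tissue preparations, labelled as crypts, held transcripts of mature enterocytes beside those of the crypt base: sucrase-isomaltase, Sis, lay at 158049 to 246167 and the crypt base gene Olfm4 at 71878 to 94859 normalized counts. The third SI tissue library was the lowest of its group in 8 of the 9 peptidases, Tmprss15 being the exception, and had the highest Olfm4. The first LI tissue library was the highest of its group in genes of the small intestine (Sis at 1723 against 623 and 193) and of smooth muscle (Myh11 at 676 against 47.6 and 19.6). The main results that rest on these libraries are given below without them as well.

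Positions are those of GRCm38, that of Mep1b being given with the meprins. On the minus strand are Anpep (ENSMUSG00000039062.15, chr7:79821803-79861059), Dpp4 (ENSMUSG00000035000.8, chr2:62330073-62412231), Enpep (ENSMUSG00000028024.14, chr3:129269175-129332720), Mep1a (ENSMUSG00000023914.16, chr17:43474324-43502812) and Tmprss15 (ENSMUSG00000022857.13, chr16:78953008-79091097). On the plus strand are Mme (ENSMUSG00000027820.12, chr3:63241537-63386030), Ace (ENSMUSG00000020681.14, chr11:105967945-105989964) and Xpnpep2 (ENSMUSG00000037005.16, chrX:48108725-48136981). Exons of Dpp4 and Ace overlap those of the antisense genes Gm13561 and Gm11651. These antisense genes held 0 to 29 counts and 0 to 2 counts per library, at most 0.249% and 0.058% of the counts of Dpp4 and Ace in the same library.

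RefSeq promoters on GRCm38.p6 were matched for 8 of the 9 genes, Mep1b being left out. The 250 bases before each start were searched on both strands for short forms of 4 motifs. The letters CAAAGTC, for HNF4, stand in 3.84% of 32851 promoters of this length. For CDX the letters TTTATNG were used, found in 9.81%. Motifs of the GATA family were searched as AGATAA, present in 9.99%, and the TATA box as TATAAA, present in 12.4%. The factors HNF4, CDX and GATA are known regulators of enterocyte genes. The promoters of Tmprss15, Dpp4, Enpep and the first start of Ace held a match, and they are shown so that the change of each gene can be read beside its promoter. Bases are 5′ to 3′ on the strand of the gene, ending just before the start or, for Ace, at the last base before an annotated exon. Capitals mark the motif matches. A match is a run of letters, not a shown binding site.
Tmprss15, chr16:79091098-79091347, minus strand: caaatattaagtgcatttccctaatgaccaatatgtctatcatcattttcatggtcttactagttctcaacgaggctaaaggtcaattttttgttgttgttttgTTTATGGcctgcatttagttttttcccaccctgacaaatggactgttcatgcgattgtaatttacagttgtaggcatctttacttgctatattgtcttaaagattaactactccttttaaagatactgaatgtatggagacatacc
Dpp4, chr2:62412232-62412481, minus strand: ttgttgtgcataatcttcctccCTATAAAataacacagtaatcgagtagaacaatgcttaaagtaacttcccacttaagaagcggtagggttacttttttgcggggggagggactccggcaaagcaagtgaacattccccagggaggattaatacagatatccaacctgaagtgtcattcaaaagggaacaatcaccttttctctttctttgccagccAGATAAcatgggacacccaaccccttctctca
Enpep, chr3:129332750-129332999, minus strand: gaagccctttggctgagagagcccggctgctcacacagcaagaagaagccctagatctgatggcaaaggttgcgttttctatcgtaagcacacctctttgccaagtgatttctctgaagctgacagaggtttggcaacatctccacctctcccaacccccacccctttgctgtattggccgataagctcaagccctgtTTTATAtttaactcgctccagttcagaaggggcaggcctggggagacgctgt
Ace, chr11:105967698-105967944, plus strand: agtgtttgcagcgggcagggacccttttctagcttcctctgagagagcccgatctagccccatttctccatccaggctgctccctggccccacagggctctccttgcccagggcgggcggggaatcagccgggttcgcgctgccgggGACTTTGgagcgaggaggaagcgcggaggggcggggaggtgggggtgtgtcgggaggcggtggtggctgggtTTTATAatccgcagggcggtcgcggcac
In Tmprss15 the CDX match lay 140 to 146 bases before the start. In Dpp4 the GATA match lay 27 to 32 bases before the start, and a CDX match and a TATA box shared bases between 222 and 228. The Ace promoter held the HNF4 match at 97 to 103 and a TATA box at 26 to 31, both read on the strand opposite to the gene. The Enpep promoter held a TATA box at 47 to 52, also on the strand opposite to the gene. The windows of Anpep, Mme, Xpnpep2, Mep1a and the second start of Ace held none of these letters. These windows differed in base composition, from 34% G and C in Tmprss15 to 73.6% in the third start of Mme.

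Monolayers were first compared with tissue in the small intestine, to see which peptidases differ after 24 h of culture. The stretch of gut and the make-up of cells may also differ between the preparations. Culture cannot be told apart from them here. Tmprss15 entered the test only through its counts in SI tissue, so it is described apart and left out of the counts and medians. Of the other 8 genes, 7 were lower in SI monolayers and none was higher, where 16.4% of all tested genes were called lower and 9.71% higher. The median log2 fold change of the 8 was -2.67, beside -0.049 for all tested genes. The falls ran from 3.16-fold in Enpep to 32.6-fold in Ace. Without the third SI tissue library they were all called as well, with log2 fold changes from -1.84 in Enpep to -5.24 in Ace. The meprin subunit gene Mep1b was the one that was not called.

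**Figure D1:**
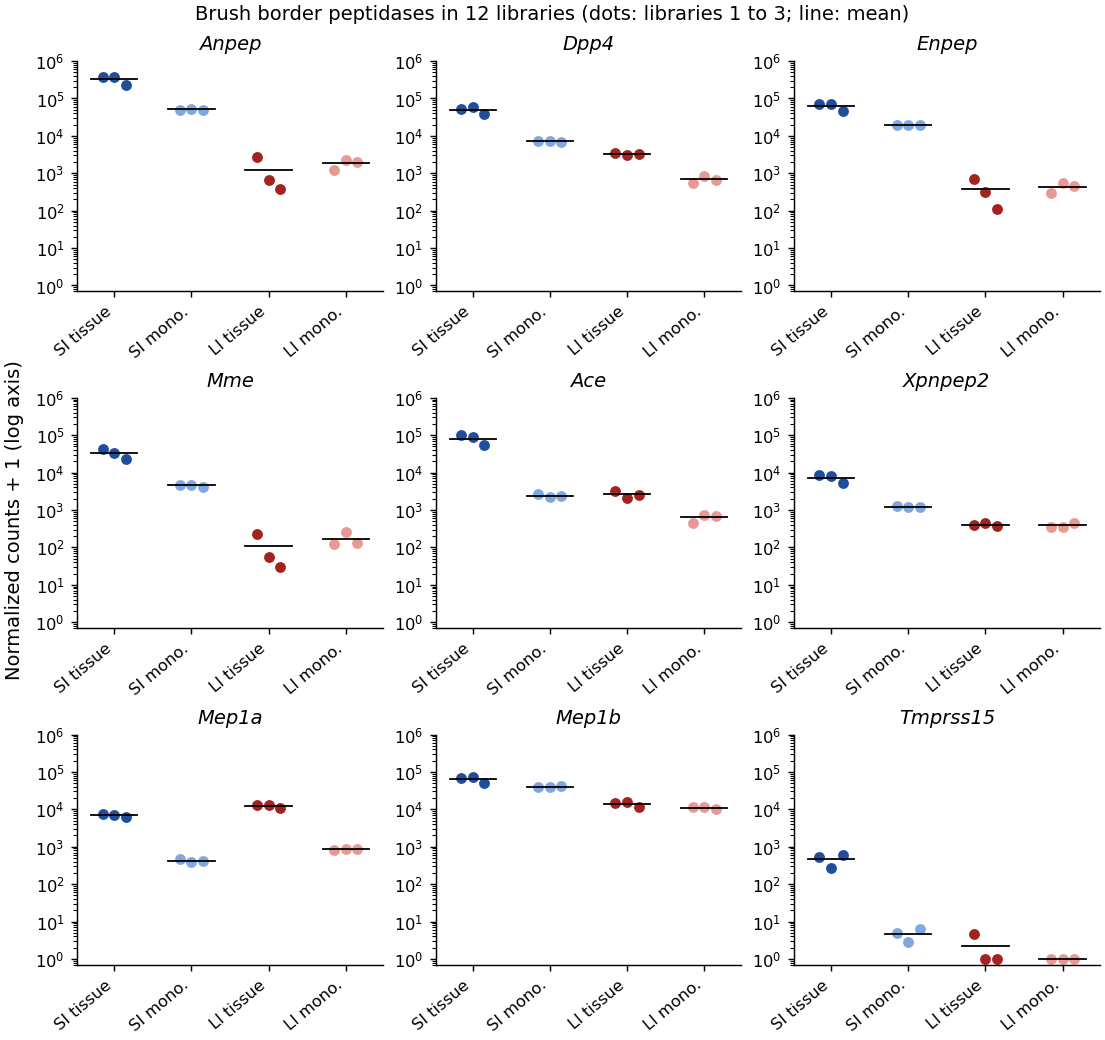
Normalized counts plus 1 of the 9 genes on a log axis, 1 panel per gene, with 1 dot per library and a line at the mean of the 3 libraries of each group. SI tissue lies above SI monolayers in every panel, LI tissue and LI monolayers overlap for Anpep, Enpep, Mme, Xpnpep2 and Mep1b, and Mep1a is the one gene with its highest values in LI tissue.

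Aminopeptidase N, the product of Anpep, removes neutral residues from the amino end of peptides. Its gene lay at 370515, 366136 and 229574 normalized counts in SI tissue and at 50115, 51902 and 50752 in SI monolayers. All SI tissue libraries were thus above all SI monolayer libraries, and the 3 monolayer libraries were close together. The log2 fold change was -2.63 (SE 0.65, adjusted p = 0.0074, edgeR), a 6.17-fold fall. Enpep encodes aminopeptidase A, which removes acidic residues and turns angiotensin II into angiotensin III. It lay at 70884, 71061 and 45403 in SI tissue and at 19109, 19126 and 19637 in SI monolayers, with no overlap. Its log2 fold change of -1.66 (SE 0.49, adjusted p = 0.0167, edgeR) was the smallest of the 7 called. This call was lost when any 1 of the SI monolayer libraries was left out, with log2 fold changes of -1.61, -1.61 and -1.63 and adjusted p-values of 0.0601, 0.0603 and 0.0563.

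Xpnpep2 encodes the membrane-bound aminopeptidase P, which removes a residue that stands before proline, and Dpp4 encodes a peptidase that removes dipeptides ending in proline or alanine. For Xpnpep2, SI tissue held 8463, 7949 and 5205 normalized counts and SI monolayers held 1269, 1204 and 1205. The fall was 5.73-fold, at a log2 fold change of -2.52 (SE 0.17, adjusted p = 1.53e-07, edgeR). Dpp4 went from 52016, 57832 and 38490 to 7466, 7442 and 6988, a log2 fold change of -2.72 (SE 0.17, adjusted p = 3.09e-07, edgeR). Neither gene had overlapping groups. Dpp4 protein, also known as CD26, is carried by T cells too, and the T cell list moved with it. All 8 of its 8 genes were lower in SI monolayers, with sums of 29484 to 42021 normalized counts in SI tissue and 1058 to 1249 in SI monolayers. No gene of that list was at 0 in every library of a group, and the part of T cells in the Dpp4 result was not tested.

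Neprilysin (Mme) is a metallopeptidase that cuts inside short peptides, and angiotensin-converting enzyme (Ace) removes dipeptides from the carboxyl end. Mme lay at 43184, 33259 and 23755 in SI tissue and at 4792, 4709 and 4181 in SI monolayers, with a log2 fold change of -2.84 (SE 0.50, adjusted p = 0.00105, edgeR). For Ace, SI tissue held 101788, 88543 and 54577 normalized counts and SI monolayers held 2601, 2286 and 2435. This was the deepest fall among the 8 genes: the log2 fold change was -5.03 (SE 0.31, adjusted p = 6.34e-07, edgeR), and with all tested genes ordered from the largest fall, Ace took place 338 of 19581. Ace is also a gene of blood vessel lining. Endothelial genes were lower in SI monolayers for 5 of 7 tested, and their sum was 538 to 561 normalized counts in SI tissue and 168 to 251 in SI monolayers, with Cdh5, an endothelial cadherin gene, at 0 in all 3 SI monolayer libraries. The part of these cells in the Ace result was not tested.

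The meprins are metallopeptidases made of alpha and beta subunits. Mep1b (ENSMUSG00000024313.8) lies on the plus strand of GRCm38 at chr18:21061923-21100199. Its product, meprin beta, is anchored in the membrane, and meprin alpha, from Mep1a, can be shed. Mep1a fell from 7342, 7123 and 6280 normalized counts in SI tissue to 464, 392 and 410 in SI monolayers, 16-fold at a log2 fold change of -4.00 (SE 0.08, adjusted p = 4.48e-15, edgeR). Mep1b lay at 67801, 74142 and 50246 in SI tissue and at 40572, 40305 and 41168 in SI monolayers. Its groups did not overlap either, and its log2 fold change of -0.62 (SE 0.14, adjusted p = 0.0022, edgeR) passed the test on p but not the minimum fold change. In SI monolayers Mep1b thus lay at 62.9% to 64.3% of its mean SI tissue level, where Mep1a lay at 5.66% to 6.70%.

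Enteropeptidase is made mostly in the duodenum, the first stretch of small intestine. Tmprss15 held 522, 270 and 582 normalized counts in SI tissue and 3.84, 1.78 and 5.47 in SI monolayers. Unlike the other members, it passed the filter on low counts through SI tissue alone, so this gene could not have been tested without being high there. Summed over 3 libraries it had 1298 counts in SI tissue, or 6.61 CPM with an exact 95% Poisson interval of 6.25 to 6.98, and 12 counts in SI monolayers, or 0.0572 CPM with an interval of 0.0295 to 0.0999. These intervals cover counting error only and take each count as independent. They would be too narrow if both mates of a pair had been counted. The raw counts in SI monolayers were 4, 2 and 6, all even numbers. All 3 tissue libraries lay above all 3 monolayer libraries, and no test is given for this gene.

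**Figure D2:**
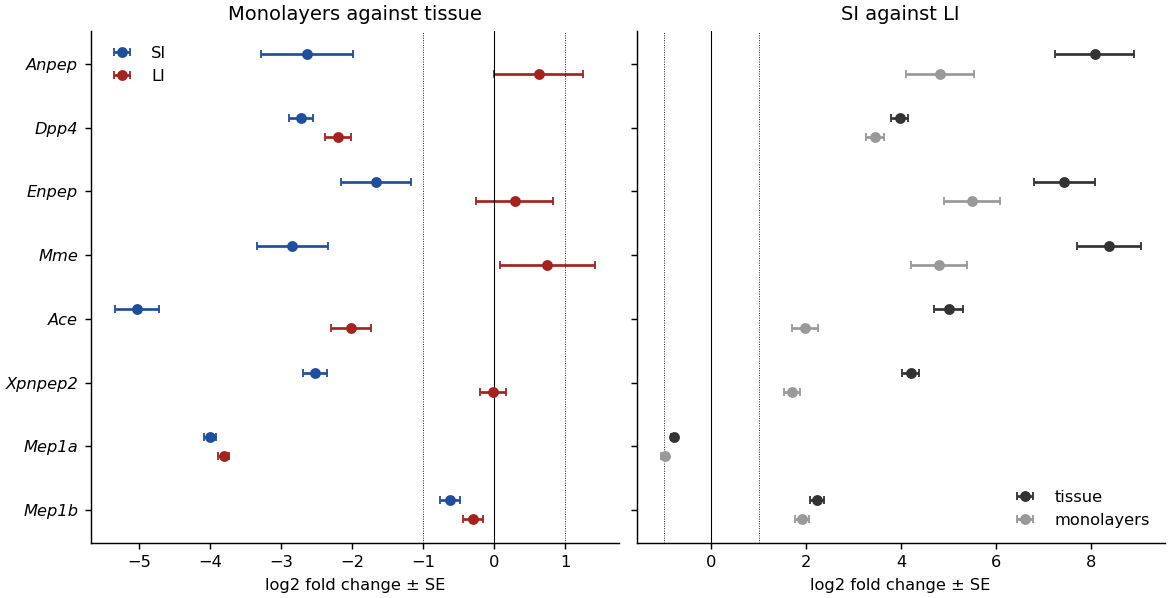
Log2 fold changes of the 8 genes without Tmprss15, with bars of 1 SE and dotted lines at the minimum of 1 in either direction, for monolayers against tissue (left, SI in blue and LI in red) and for SI against LI (right, tissue in black and monolayers in grey). The SI and LI points lie close together for Dpp4, Mep1a and Mep1b and far apart for Anpep, Mme, Ace and Xpnpep2.

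The same comparison in the large intestine gave fewer calls. Dpp4, Ace and Mep1a were lower in LI monolayers than in LI tissue and no member was higher, so 3 of the 8 without Tmprss15 were called lower beside 23.5% of all tested genes, with 14.5% of genes called higher. Their median log2 fold change was -0.16, beside -0.052 for all tested genes.

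Mep1a, with the largest fall of the 3, went from 12778, 12920 and 11027 normalized counts in LI tissue to 807, 854 and 878 in LI monolayers, 14-fold at a log2 fold change of -3.81 (SE 0.08, adjusted p = 2.1e-15, edgeR). Dpp4 went from 3394, 2991 and 3325 to 552, 856 and 643 (log2 fold change -2.20, SE 0.18, adjusted p = 1.28e-06, edgeR). Ace went from 3241, 2071 and 2565 to 457, 737 and 707 (log2 fold change -2.01, SE 0.28, adjusted p = 0.000164, edgeR). In each of these 3 genes every tissue library was above every monolayer library. The T cell list fell here too, with 8 of 8 genes lower and sums of 1951 to 2935 normalized counts in tissue and 89.5 to 248 in monolayers. Beside Ace, the summed endothelial list went from 508 to 568 in tissue to 255 to 335 in monolayers, with 3 of 7 tested genes lower and 2 higher. The part of either list in these results was not tested.

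Mep1b and Xpnpep2 were not called in the large intestine. Mep1b lay at 15124, 15486 and 11579 normalized counts in LI tissue and at 11620, 11331 and 10269 in LI monolayers, groups that overlapped by a narrow margin. Its log2 fold change was -0.30 with a 95% interval of -0.61 to 0.02 (adjusted p = 0.0737, edgeR). Xpnpep2 lay at 389, 446 and 371 in LI tissue and at 352, 350 and 453 in LI monolayers, a log2 fold change of -0.01 with an interval of -0.43 to 0.40 (adjusted p = 0.949, edgeR). The lower bound of this interval lies above its SI value of -2.52.

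For Anpep, Enpep and Mme the LI tissue libraries were widely spread. Anpep held 2676, 663 and 376 normalized counts in LI tissue and 1224, 2316 and 1992 in LI monolayers. Enpep held 688, 322 and 111 in LI tissue and 304, 562 and 457 in LI monolayers. Mme held 231, 54.9 and 28.6 in LI tissue and 121, 257 and 134 in LI monolayers. In each of these genes the first LI tissue library was the highest of its group, and the groups overlapped. The log2 fold changes were 0.63 for Anpep (SE 0.63, adjusted p = 0.407), 0.29 for Enpep (SE 0.54, adjusted p = 0.657) and 0.75 for Mme (SE 0.67, adjusted p = 0.351), all by edgeR and none called. Without the first LI tissue library, Anpep was higher in LI monolayers at 1.87 (adjusted p = 0.00262, edgeR) and Mme at 2.05 (adjusted p = 0.0107, edgeR), and the number of members called rose from 3 to 5. Tmprss15 had 4 counts in LI tissue, all in the first library, and no count in LI monolayers, where 3 counts would be 0.0152 CPM over the group. No fold is given for it.

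Next, small and large intestine were compared within each preparation. In tissue, 7 of the 8 genes without Tmprss15 were higher in SI and none was lower, while 11.6% of all tested genes were called higher and 11.1% lower. Their median log2 fold change was 4.6, beside 0.055 for all tested genes. Mme, Anpep and Enpep differed by the most among the 8: 8.37 for Mme (SE 0.67, adjusted p = 7.57e-06), 8.07 for Anpep (SE 0.84, adjusted p = 4.26e-05) and 7.43 for Enpep (SE 0.64, adjusted p = 1.16e-05), all by edgeR. These are differences of 331-fold, 269-fold and 173-fold. The first LI tissue library was high in all 3, and without it the log2 fold changes were 9.67 for Mme, 9.31 for Anpep and 8.21 for Enpep. Without the third SI tissue library they were 8.56, 8.26 and 7.62.

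Ace was 32-fold higher in SI tissue than in LI tissue (log2 fold change 5, SE 0.31), Xpnpep2 18.4-fold (4.2, SE 0.18) and Dpp4 15.7-fold (3.97, SE 0.18). The smallest called difference was 4.68-fold for Mep1b (2.23, SE 0.14, adjusted p = 1.43e-07, edgeR). Mep1a went the other way: its 3 LI tissue libraries, at 11027 to 12920, were all above the 3 SI tissue libraries, at 6280 to 7342. The log2 fold change of -0.78 (SE 0.07, adjusted p = 1.38e-07, edgeR) did not reach the minimum fold change. Tmprss15 had 1298 counts in SI tissue and 4 in LI tissue, or 0.0181 CPM with an exact 95% Poisson interval of 0.00492 to 0.0463, and no test is given for it. In Dpp4, T cell genes moved the same way, 7 of 8 being higher in SI tissue, and their part in the result was not tested. Beside Ace, 1 of 7 tested endothelial genes was higher in SI tissue and 1 was lower.

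In monolayers the order of the regions was the same for each of the 8 genes, and the estimated difference was smaller in 7 of the 8, Mep1a being the exception. Again 7 of the 8 were called higher in SI and none lower, beside 12.4% and 8.88% of all tested genes. The largest was Enpep at 44.8-fold (log2 fold change 5.49, SE 0.59, adjusted p = 5.57e-05, edgeR), followed by Anpep at 28.2-fold (4.82, SE 0.72), Mme at 27.6-fold (4.79, SE 0.59) and Dpp4 at 10.9-fold (3.45, SE 0.18). Ace differed by 3.94-fold, Mep1b by 3.75-fold and Xpnpep2 by 3.24-fold. Beside Ace, 1 of 7 tested endothelial genes was higher in SI monolayers and 4 were lower. T cell genes again moved with Dpp4, 7 of 8 being higher in SI monolayers and none lower, and their part in its result was not tested. Mep1a was again higher in the large intestine, at 807 to 878 against 392 to 464 normalized counts. Its log2 fold change of -0.98 (SE 0.08, adjusted p = 4.06e-08, edgeR) lay next to the minimum of 1, and DESeq2 at -1.01 called it. The median of the 8 log2 fold changes was 2.71 in monolayers, beside 0.021 for all tested genes. Tmprss15 had 12 counts in SI monolayers, with an interval of 0.0295 to 0.0999 CPM, and none in LI monolayers, with an interval of 0 to 0.0187 CPM. Its adjusted p-value of 0.0335 (edgeR) rose to between 0.0677 and 0.0981 in 5 of the fits that left out 1 library, all but the one without the second SI library, and no difference is read from so few counts.

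The interaction of region and preparation tested whether the change from tissue to monolayers differed between SI and LI. It was called lower, that is a lower value of the change in SI than in LI, for 4 of the 8 genes without Tmprss15 and higher for none, where 8.51% of all tested genes were called lower and 11.4% higher. The 4 were Mme (-3.58 on the log2 scale, SE 0.82, adjusted p = 0.00696), Anpep (-3.25, SE 0.90, adjusted p = 0.0172), Ace (-3.02, SE 0.38, adjusted p = 2e-04) and Xpnpep2 (-2.50, SE 0.24, adjusted p = 8.77e-06), by edgeR. Enpep lay at -1.95 (SE 0.72, adjusted p = 0.0559, edgeR) and moved past the threshold without the first LI tissue library (-2.72, adjusted p = 0.00628) or the third (-1.51, adjusted p = 0.0416). Without the first LI tissue library the interaction was -4.89 for Mme and -4.49 for Anpep, and over all fits that left out 1 library it ran from -4.89 to -3.07 and from -4.49 to -2.82. Anpep lost its call without the second LI monolayer library (-2.94, adjusted p = 0.0502, edgeR). Beside Ace, 4 of 7 endothelial genes had an interaction called lower and none higher, and their part in the Ace result was not tested. Cdh5 lay furthest at -9.18, a value without a firm size, since this gene was at 0 in SI monolayers. For Dpp4, Mep1a and Mep1b the difference between regions was not called, with values of -0.52, -0.19 and -0.32 and 95% intervals of -1.07 to 0.02, -0.44 to 0.05 and -0.76 to 0.12. The interaction of Tmprss15 is not given, since both LI groups were at or near 0.

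Levels of different genes were compared only per length, as counts per kilobase of exon scaled to the same sum in each library. On this scale the 9 genes of SI tissue together reached 5140 ± 1240 (SD, n = 3), against 1490 ± 14.6 for SI monolayers. The sums of the large intestine were 409 ± 64.2 in tissue and 241 ± 13 in monolayers. No 2 groups overlapped in this sum, which ran from 3710 to 5990, 1480 to 1500, 339 to 466 and 228 to 254.

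In SI tissue Anpep was highest at 2750 ± 700 (SD, n = 3) per length, a share of 53.5% of the sum. Mep1b followed at 863 ± 180, then Ace at 545 ± 160, Enpep at 469 ± 114, Dpp4 at 277 ± 60, Mme at 102 ± 28.4, Mep1a at 70.8 ± 6.04, Xpnpep2 at 52.2 ± 12.8 and Tmprss15 at 3.84 ± 1.33. Of these neighbours, Ace and Enpep overlapped between libraries, as did Mme and Mep1a, and the others did not. The order changed in SI monolayers, where Mep1b came first at 673 ± 4.49, a share of 45.2%, ahead of Anpep at 535 ± 13.4. Enpep came next at 178 ± 2.31, Dpp4 at 50.2 ± 2.08, Ace at 20 ± 1.18, Mme at 17.2 ± 1.31, Xpnpep2 at 10.9 ± 0.301 and Mep1a at 5.30 ± 0.444. No neighbours overlapped there, but Ace and Mme traded places when the longest transcript was used as the length.

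In LI tissue the 2 meprin genes made up most of the sum. Mep1b stood at 211 ± 35.4 (SD, n = 3) per length, a share of 51.5%, and Mep1a at 139 ± 14.4, a share of 34.3%. Dpp4 at 20.1 ± 1.71, Ace at 19.6 ± 4.89 and Anpep at 12 ± 12.4 overlapped with their neighbours, as did Xpnpep2 at 3.24 ± 0.305 and Enpep at 3.16 ± 2.55. Mme was lower at 0.364 ± 0.391. LI monolayers were mostly Mep1b, at 191 ± 14 and a share of 79.2%. Anpep at 20.2 ± 6.04 and Mep1a at 11.1 ± 0.374 followed without overlap, while Ace at 5.42 ± 1.28, Dpp4 at 4.90 ± 1.11, Enpep at 4.24 ± 1.23 and Xpnpep2 at 3.57 ± 0.512 overlapped each with the next. With the longest transcript as the length, Ace and Dpp4 and also Enpep and Xpnpep2 changed places.

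**Figure D3:**
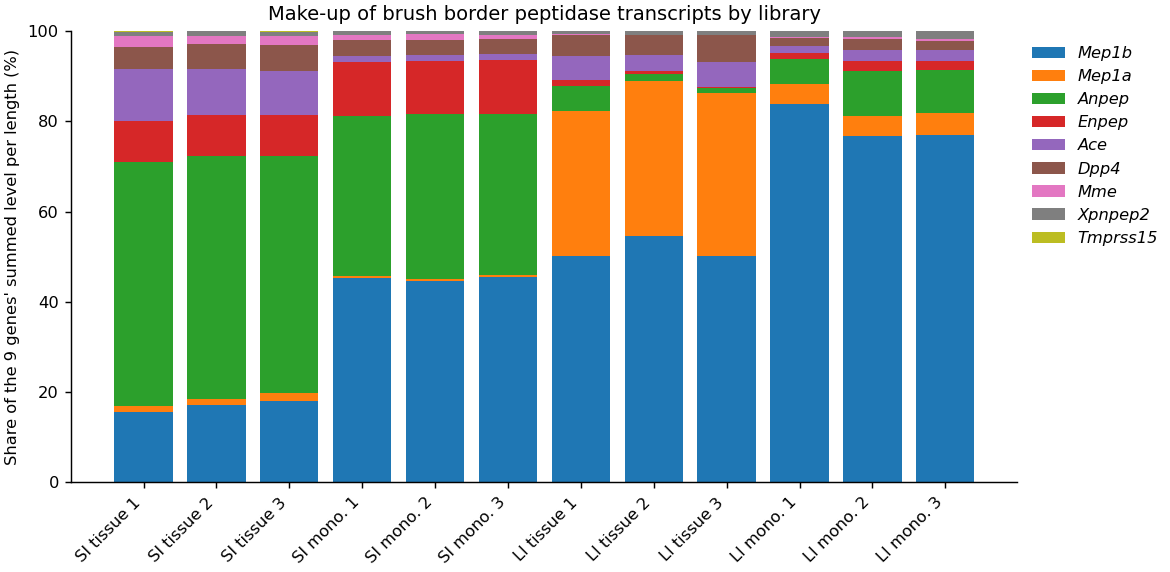
Share of each gene in the summed level per length of the 9 genes, in percent, with 1 stacked bar per library. Anpep (green) is the largest part in SI tissue, Mep1b (blue) in the other 3 groups, and Mep1a (orange) is a large part in LI tissue only, at 32.2% to 36.3%.

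The ratio of the meprin beta to the meprin alpha transcript, both per length, summarises the shift between the subunits. It was 12.1, 13.7 and 10.5 in SI tissue and 115, 135 and 132 in SI monolayers. In the large intestine it was 1.56, 1.58 and 1.38 in tissue and 18.9, 17.4 and 15.4 in monolayers. Thus the ratio was higher in monolayers than in tissue in both regions, by 3.40 in SI and 3.52 in LI on the log2 scale, and higher in SI than in LI in both preparations, by 3 in tissue and 2.89 in monolayers. None of these groups overlapped. With 3 libraries against 3 a two-sided exact permutation test cannot go below p = 0.1, the value of each comparison, so it adds nothing to the absence of overlap.

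The LI libraries were then placed on the scale of SI tissue, as percent of its mean normalized count. Anpep, Enpep and Mme lay between 0.0855% and 1.10% in all 6 LI libraries. They also shared one order: among LI tissue libraries the first was highest and the third lowest, and among LI monolayer libraries the second was highest and the first lowest. Dpp4, Ace, Xpnpep2, Mep1a and Mep1b did not follow this order. Dpp4 lay at 6.05% to 6.86% and Xpnpep2 at 5.15% to 6.19% in LI tissue, a narrow range beside that of Anpep, at 0.117% to 0.831%.

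Several other genes of the small intestine had the order of Anpep. Sis lay at 0.815%, 0.295% and 0.0912% of its SI tissue mean in LI tissue and at 0.412%, 0.837% and 0.673% in LI monolayers. Fabp1, a fatty acid carrier of enterocytes, the lactase gene Lct and Ggt1, a gamma-glutamyltransferase of the brush border, followed the same order. It was held by 3.11% of all 19581 tested genes, and by 43 of the 98 genes (43.9%) with at least 1000 normalized counts in SI tissue and under 2% of that in every LI library. Anpep, which sets the order, meets these limits itself, as do Enpep, Mme, Sis, Fabp1, Lct and Ggt1. Genes of smooth muscle were also high in the first LI tissue library, Des at 496, 36.6 and 16.1, and the summed pericyte and smooth muscle list stood at 2479, 714 and 543 normalized counts. The part of either in the LI values of Anpep, Enpep and Mme was not tested.

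**Figure D4:**
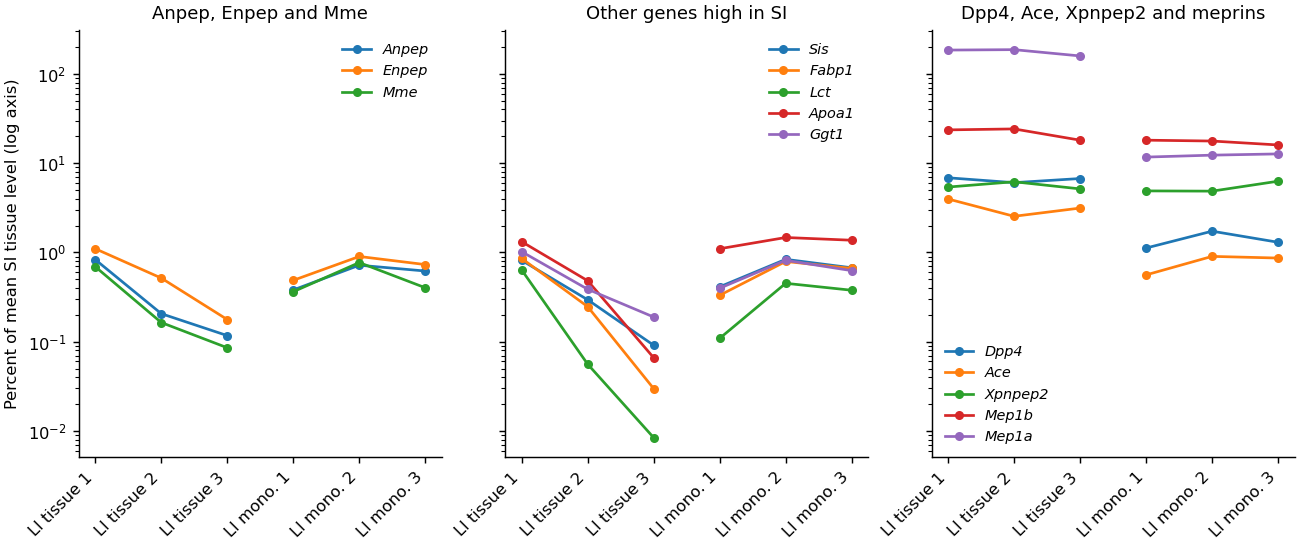
Level in each of the 6 LI libraries as percent of the mean SI tissue level, on a log axis, with lines that join the libraries of one group for each gene and imply no order. Anpep, Enpep and Mme (left) and Sis, Fabp1, Lct, Apoa1 and Ggt1 (middle) fall from the first to the third LI tissue library in the drawn sequence and stay at or below 1.47%, while Dpp4, Ace, Xpnpep2 and the meprins (right) do not share this shape.

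Other brush border peptidases, not among the 9, were read from a separate list. They include Dpep1, a dipeptidase, Ggt1, Naaladl1, a relative of Folh1, and Folh1 itself. Folh1 held at most 8.34 normalized counts in any library and was not tested. Dpep1, Ggt1 and Naaladl1 were lower in SI monolayers than in SI tissue, with log2 fold changes of -2.50 for Dpep1, -2.64 for Ggt1 and -2.35 for Naaladl1. In the large intestine Dpep1 fell by 5.38 on the log2 scale and Naaladl1 fell by 1.05, while Ggt1 was not called at 0.24 (adjusted p = 0.711, edgeR). For Dpep1, LI tissue, at 18844 to 25450 normalized counts, came close to SI tissue, at 22226 to 29391. As for Mep1a, the difference between the regions in tissue was not called (log2 fold change 0.27, adjusted p = 0.0532, edgeR). The likeness ended there. In monolayers Dpep1 was higher in SI by 3.16, where Mep1a lay at -0.98. The interaction of Dpep1 was called higher at 2.89, and that of Mep1a was not called at -0.19.

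Transporters take up the products of these enzymes. Of 11 genes for amino acid and peptide uptake, 9 were lower in SI monolayers and none was higher, with a median log2 fold change of -2.26. The shares of all tested genes were 16.4% lower and 9.71% higher in SI, and 23.5% and 14.5% in LI. Slc15a1, the peptide transporter of the brush border, fell by 4.47 on the log2 scale in SI and fell by 4.22 in LI, and Slc1a1, a transporter of acidic amino acids, fell by 4.77 and, in LI, fell by 4.55. In LI monolayers 5 of the 11 were lower and 1 was higher, Slc3a2 at 1.42 (adjusted p = 1.88e-07, edgeR), the partner chain of several exchangers. Slc6a19, the main carrier of neutral amino acids, was lower in SI monolayers at -3.84 and was not called in LI at 0.49, and its interaction was called at -4.33 (adjusted p = 0.000601, edgeR). In tissue 10 of the 11 were higher in SI and none was lower, beside 11.6% and 11.1% of all tested genes. Slc36a1 at 0.97 (adjusted p = 0.00268, edgeR) missed only the minimum fold change.

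Hydrolases of the same membrane that act on sugars and lipids were lower in SI monolayers for 4 of 7 genes, Lct at -5.93 the furthest, with none higher, and in LI for 1 of 7. Cytosolic peptidases, which finish the cutting of absorbed peptides, did not move one way: of 13 genes, 1 was higher (Thop1, at 1.57) and 2 were lower in SI monolayers, and 2 were higher and none was lower in LI monolayers. Relatives of the 9 members by family, such as endoplasmic aminopeptidases and other membrane serine proteases, were called in SI for 1 of 17 tested genes of 22. That gene, named after its values were seen, is Bmp1, a relative of the meprins, at 674 to 1397 normalized counts in SI tissue and 162 to 210 in SI monolayers (log2 fold change -2.28, SE 0.26, adjusted p = 6.5e-06, edgeR). In LI monolayers 4 of the 17 relatives were higher and 4 were lower. Bmp1 was among the higher ones there (log2 fold change 1.19, SE 0.27, adjusted p = 0.0014, edgeR). The enterocyte list was lower for 7 of 12 genes in SI monolayers, and in LI 3 were higher and 3 lower. Medians of these lists in SI were -3.11 for the hydrolases, 0.26 for the cytosolic peptidases, -0.28 for the relatives and -1.24 for the enterocyte genes. Of all tested genes 16.4% were called lower and 9.71% higher in SI monolayers, and 23.5% and 14.5% in LI monolayers.

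Transcription factor genes of enterocytes were read in the same libraries. Hnf4a was not called in any of the 4 pairwise comparisons, at 45055 to 82516 normalized counts over the 12 libraries. Its LI monolayer libraries, at 45055 to 45093, were below all others. The log2 fold change was -0.59 against LI tissue (adjusted p = 5.03e-08) and 0.63 for SI over LI monolayers (adjusted p = 6.58e-08), by edgeR. Both missed only the minimum fold change. Gata4 and Gata5, factors of the proximal gut, were high in both SI groups and low in both LI groups, with log2 differences of 6.37 and 6.91 in tissue. Neither was called between monolayers and tissue in either region. Gata5 lay next to the minimum in LI at 0.99 (adjusted p = 0.00607, edgeR). Its interaction was called lower at -1.14 (adjusted p = 0.00952, edgeR). Hnf4g was higher in SI by 3.39 in tissue and 4.01 in monolayers. Cdx1 and Cdx2 were lower in LI monolayers than in LI tissue, by -2.40 and -1.01, and Hnf4g by -1.34. In SI monolayers 2 of the 13 factors were lower, Maf at -3.57 and Creb3l3 at -1.68, and none was higher. Of all tested genes 16.4% were lower and 9.71% higher there, a share of lower genes close to that of the factors.

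For each peptidase the 2 genes with the most similar profile were found by Pearson's r of log2 CPM over the 12 libraries, among 9219 genes of at least 10 mean CPM. These values describe 4 groups of 3 libraries, so groups of points drive them, and no p-value is attached. Anpep was most like Pdzk1, a scaffold of brush border transporters, at r = 0.9992 and then Slc5a11, and Mme was most like Slc5a11 and Anpep, both at 0.9987. Dpp4 was closest to Slc5a1, the sodium-glucose transporter, at 0.9984, and Enpep to Creb3l3 at 0.9985. Ace came next to Naaa at 0.995 and Tgfbi at 0.9907, and Xpnpep2 to Slc27a4, a fatty acid transporter, at 0.9952 and Asah2 at 0.9945. Mep1a was most like Ceacam20 at 0.9972 and Entpd8 at 0.9948, and Mep1b was most like Cideb at 0.9946 and Soat2 at 0.9942. Tmprss15 came closest to Enpp3 at 0.9897 and Vwa1 at 0.9885.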

How the data were processed

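RNA of 12 libraries (4 groups of 3) was sequenced in pairs of reads, and per the submitters' processing notes the reads were aligned to GRCm38 with STAR 2.7.9a, counted with featureCounts 2.0.2 and normalized with DESeq2. The authors deposited whole-number counts per gene, not normalized, and a table of normalized signal, the same counts divided by 1 size factor per library (0.85 to 1.12). Symbols and lengths came from GENCODE vM21 on GRCm38: 55141 of 55487 genes were named, 346 were not. Replicates differed by 1.46 to 2.80 times the counting noise, so each library counted as 1 sample. The monolayer libraries were closest, at 1.46 to 1.65 in SI and 1.61 to 1.86 in LI. Each came from pooled wells, and the sources used here do not say whether the wells of different libraries came from different mice. Tests with monolayers may thus not cover the spread between mice or cultures.

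Counts were tested with edgeR 4.0.16 in R 4.3.3: filterByExpr by group, TMM, robust glmQLFit in 1 model of 4 group means and glmQLFTest, with Benjamini-Hochberg adjustment over 19581 genes, after a test on simulated data. Levels of each library, medians of lists and percents were computed from the normalized signal or the fits, without set tests. Likeness used log2 CPM after TMM (prior count 2). The alternatives were DESeq2 1.42.0 (Wald test), scaling by the upper quartile, testing without a filter or with 10 or more counts in each library, dropping the minimum fold change, the replicate number as a block, counts halved, only the groups compared, each library left out in turn, and the longest transcript as length.

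The 9 members and the gene lists were chosen with earlier results of these data known. By the rule for naming genes, the members, the other brush border peptidases, the uptake genes and the factors may be named, as may the genes of the other lists with the largest rise or fall in a comparison and the 2 genes most like each member. Endothelial, fibroblast, muscle, T cell, B cell and myeloid lists were read beside the results. Replicate numbers did not pair the libraries. Drug, imaging and protein data of the study were not analysed here. A few genes of the lists, and 1 motif, are not reported here.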

Additional observations from a re-analysis of the deposited data

Results flagged for a closer look

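The difference between monolayers and tissue was not the same in the 2 regions for Anpep, Mme, Ace and Xpnpep2. This was tested directly, by the interaction in edgeR's quasi-likelihood model. The interaction on the log2 scale was -3.25 for Anpep, where SI monolayers were lower than SI tissue by 2.63 and the change in LI was 0.63. For Mme it was -3.58, from -2.84 in SI and 0.75 in LI. For Ace it was -3.02, from -5.03 in SI and -2.01 in LI, so this gene was lower in monolayers in both regions. For Xpnpep2 it was -2.50, from -2.52 in SI and -0.01 in LI. The LI values of Anpep and Mme rest on 3 LI tissue libraries that differ widely: with 1 library left out the interaction ran from -4.49 to -2.82 for Anpep and from -4.89 to -3.07 for Mme, the largest values being those without the first LI tissue library. For Ace it ran from -3.24 to -2.79 and for Xpnpep2 from -2.69 to -2.26. Anpep and Mme lay at or under 0.831% of their SI tissue mean in every LI library. A lower interaction was not particular to these peptidases. It was called for 4 of 7 other brush border hydrolases and 6 of 12 enterocyte genes, with 1 higher in each list. Of all tested genes, 8.51% were called lower and 11.4% higher. Beside Ace, 4 of 7 endothelial genes had an interaction called lower. Between regions, 1 of the 7 was higher in SI tissue and 1 lower, and in monolayers 1 was higher in SI and 4 lower. Their part in the Ace result was not tested. No library was tested for standing apart within its group, since every group had 3.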

How the results depend on the processing

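Over 86 results and 779 alternatives, 744 kept direction and side of the threshold, 14 passed it newly, 10 no longer passed it, 11 moved and none reversed. Leaving out 1 library at a time gave 3 to 5 called members in LI, 5 being the count without the first LI tissue library. The interaction also had 3 to 5. In the main fit 23.5% of all tested genes were lower and 14.5% higher in LI, and 8.51% and 11.4% for the interaction. Such counts for SI, between the tissues and between the monolayers include Tmprss15, which passed the filter through SI tissue alone. No stability is read from them. Without Tmprss15 the main fit called 7 of 8 genes in each of these comparisons. Without a minimum fold change, calls over all genes rose to 11674, 13445, 10558, 10145 and 9069 in the 5 comparisons, from 5110, 7442, 4446, 4159 and 3909, and Mep1b in SI and Mep1a between the regions were called. With upper quartile normalization the median of all genes in LI moved from -0.052 to -0.171, and the members' calls did not change. Samples of the same replicate number did not deviate together (r from -0.052 to 0.056 over 18 pairs), and with the replicate block the calls over all genes were 5017, 7367, 4383, 4083 and 3807 and no member's call changed. The interaction of Enpep was called by DESeq2 (-1.96, adjusted p = 0.0157) and with counts halved (adjusted p = 0.0427), and with counts halved Tmprss15 was no longer called between the monolayers (adjusted p = 0.0765). Tmprss15 could not be tested with at least 10 counts in every library. Depth limits Tmprss15 most among the members.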

Other observations

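Immune and stromal lists in the same libraries gave the following values, which no comparison above uses. B and plasma cell genes were lower in monolayers for 6 of 6 in each region. Myeloid genes were lower for 5 of 8 in SI and 6 of 8 in LI, and Cd68 was higher in both. The fibroblast list of SI summed to 439 to 1544 normalized counts in tissue and 568 to 1171 in monolayers, and that of LI to 2397 to 3387 and 2102 to 3434. The stem and proliferating list was lower for 2 of 10 genes in SI and 4 of 10 in LI, with Olfm4 the furthest in SI at -6.09 and Ascl2 in LI at -6.19. Of all tested genes 16.4% were lower in SI monolayers and 23.5% in LI monolayers.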
